A study of Rattus norvegicus with 6 samples.

Results

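Transcripts of the genes that fill, empty and sense the calcium store of the endoplasmic reticulum were followed in rat pancreatic islets at 3 and 12 months of age. The genes were the reticulum pumps *Atp2a2* and *Atp2a3*, the release channels *Itpr1*, *Itpr2*, *Itpr3* and *Ryr2*, the store sensor *Stim1*, the entry channel *Orai1* and the plasma membrane pump *Atp2b1*. They were chosen by name, and a probe belonged to a gene if its RefSeq mRNA accession, without the version, had that symbol. All 9 had a probe, 10 mRNA probes in all, out of 13888 named genes on the array. Of the 9, 8 cleared the background filter (well above it on 3 or more of 6 arrays) and were tested.

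Islet beta cells secrete insulin when calcium rises in the cytosol, and the endoplasmic reticulum is their main internal calcium store. SERCA pumps load it at the cost of ATP, while inositol trisphosphate (IP3) receptors and ryanodine receptors let calcium out. When the store empties, STIM proteins in its membrane gather and open ORAI channels in the plasma membrane, and plasma membrane calcium pumps (PMCA) remove calcium from the cell.

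Islets came from male Wistar rats of either age, with no treatment named, and were freed from the pancreas by collagenase digestion. There were 3 arrays of 12-month islets and 3 of 3-month islets, 1 for each RNA sample, each labelled with Cy3 alone and hybridised to a 1-colour array. The series' design names 3 rats of each age. The question of the comparison was which islet transcripts differ with age.

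The tissue label was checked with marker genes. *Ins1* and *Ins2* (insulin), *Gcg* (glucagon) and *Ppy* (pancreatic polypeptide) were measured on all arrays, and their age differences on the log2 scale were 0.10, -0.12, 0.19 and 0.44. All 11 acinar marker genes were also well above background on all 6 arrays. Their mean log2 signal lay between 16.07 and 17.26 at 12 months and between 16.35 and 17.30 at 3 months. On every array it was above the mean of the beta cell markers. The mean log2 signal of 9 beta cell markers lay between 14.44 and 15.27 at 12 months and between 13.31 and 13.52 at 3 months. The age differences of these 9 ran from -0.22 to 4.11, with 7 above 0. The mean of 12 nerve and Schwann cell markers lay between 7.04 and 7.76 at 12 months and between 8.44 and 9.04 at 3 months. That of 6 smooth muscle markers lay between 10.08 and 10.79 at 3 months and lower than this, from 9.10 up, at 12 months. Stellate and mesenchymal markers lay between 12.38 and 13.50 at 12 months and between 11.53 and 12.14 at 3 months. Other endocrine markers lay between 14.45 and 14.64, and between 14.03 and 14.26. Endothelial markers lay between 8.95 and 9.39, and between 9.69 and 9.78. Of the 6 endothelial age differences 2 were above 0 and 4 below. One of these markers, *Cdh5* (-2.11), was well above background on 3 arrays at 3 months and 0 at 12 months. It thus passed the filter through the 3-month arrays alone, and the gap in the endothelial means rests in part on it. *Cdh5* was named after its values had been seen. The ages overlapped for the means of acinar, duct, immune and blood cell markers. All 12-month arrays were scan 1 and all 3-month arrays scan 2 per the file headers, and these effects cannot be told apart. The negative control signal was 90.5 ± 0.87 (SD, n = 3) at 12 months and 30.2 ± 0.76 at 3 months, and 61.2% ± 2.6 and 75.7% ± 2.3 of probes were well above background. In whole islets, fewer cells of a type and less RNA per cell cannot be told apart.

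None of the 8 tested genes passed an adjusted p of 0.05 in limma between 12 and 3 months. Over all 11189 named genes tested, 7.86% passed, 4.88% higher and 2.98% lower at 12 months. None of the 8 passed the study's threshold either, more than 2-fold at an unadjusted p of less than 0.05, which 19.4% of all named genes passed. The p used here was that of limma without pairing, while the study's supplement names a paired test. At an unadjusted p under 0.05 alone 1 gene, *Atp2b1*, was found, against 30.6% of all named genes. The median age difference of the 8 genes was 0.27 on the log2 scale, with 5 above 0 and 3 below, against a median of -0.13 over all named genes. When each array was only shifted to a common 75th percentile, the median of all named genes moved to -0.34, that of the 8 genes to -0.10, and 3 of the 8 were above 0. The 3-month and 12-month values did not overlap for 2 of the 8, *Atp2b1* and *Atp2a2*, both higher at 12 months. Over all named genes 17.1% did so in that direction and 22.2% in the other.

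**Figure D1:**
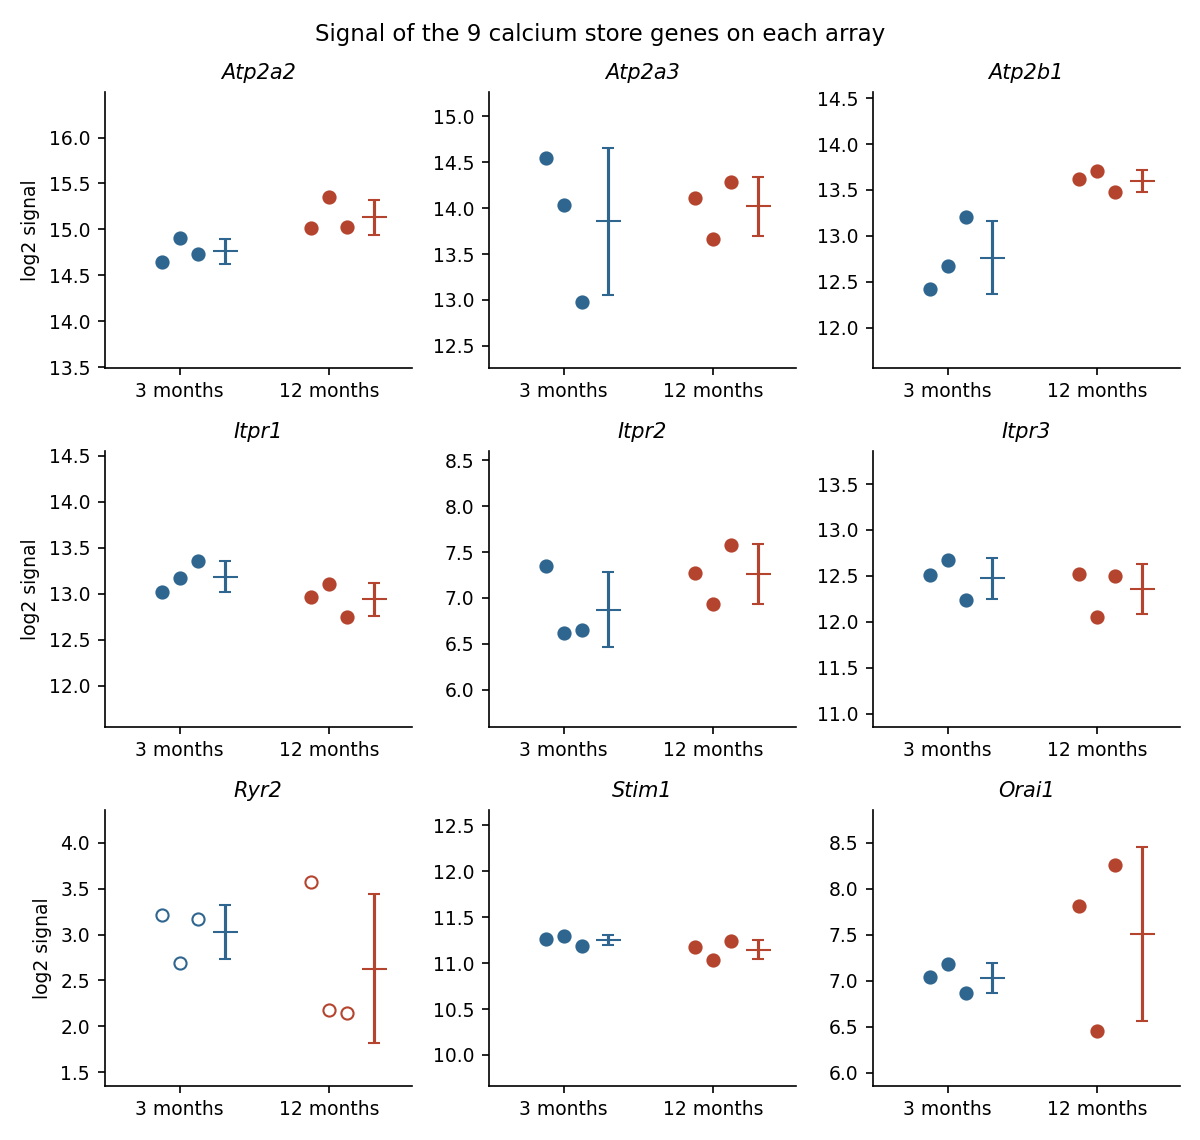
Log2 signal after quantile normalization (y axis, each panel spanning 3 log2 units around its own middle) of the 9 calcium store genes on each array, with 3-month arrays in blue and 12-month arrays in red. Points are arrays 1 to 3 from left to right, bars are the mean ± SD (n = 3), and open points (*Ryr2*) were not well above background. The ages are apart for *Atp2b1* and *Atp2a2* and overlap for the others.

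*Atp2b1* encodes PMCA1, a calcium pump of the plasma membrane that is found in most cell types. Its log2 signal was 13.62, 13.71 and 13.48 on the 12-month arrays and 12.42, 12.67 and 13.20 on the 3-month arrays. All 12-month values were above all 3-month values, and the 3-month arrays were more spread than the 12-month arrays. The log2 difference was 0.84 ± 0.28 (SE), a 1.78-fold higher signal, with a 95% interval from 0.18 to 1.49. Its unadjusted p in limma was 0.0199 and its adjusted p 0.0968, and the exact permutation p was 0.1, the smallest that 3 arrays against 3 can give. Among 17 alternative settings the difference stayed above 0, from 0.54 to 1.12, and 1 setting, array weights, gave an adjusted p in limma under the threshold (0.0257). The part of the difference in beta cell markers in this value was not tested.

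None of the other PMCA genes passed the test. *Atp2b3* (PMCA3) had log2 signals of 9.02, 8.78 and 8.98 at 12 months and 8.53, 8.22 and 7.94 at 3 months. It was higher by 0.70 ± 0.25 (SE), with ages that did not overlap and an adjusted p in limma of 0.114. *Atp2b4* (PMCA4) had 4.97, 4.68 and 4.57 at 12 months and 5.30, 5.69 and 5.21 at 3 months, a difference of -0.66 ± 0.25 with an adjusted p in limma of 0.130. At 12 months 1 of its 3 readings was well above background, at 3 months all 3. Over 16 alternative settings its difference lay between -1.21 and -0.22, the latter with another background correction. *Atp2b2* (PMCA2) differed by 0.04 ± 0.31, with an interval from -0.69 to 0.77.

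*Atp2a2* encodes SERCA2, the SERCA pump found in nearly all cells, and its mRNA is spliced at the 3′ end into forms that differ in the end of the protein. Its brightest probe, for the mRNA record NM_001110823, gave log2 signals of 15.01, 15.35 and 15.03 at 12 months and 14.64, 14.91 and 14.73 at 3 months. The ages did not overlap. The difference was 0.37 ± 0.23 (SE), a 1.29-fold higher signal, with an interval from -0.18 to 0.92 and an adjusted p in limma of 0.296.

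A second *Atp2a2* probe, for the mRNA record NM_001110139, went the other way. Its log2 signal was 14.16, 14.55 and 13.97 at 12 months and 14.66, 14.64 and 14.85 at 3 months, again with no overlap. The difference was -0.49 ± 0.25 (SE), with an adjusted p in limma of 0.217. Another probe, for the non-coding record NR_027839, which carries the *Atp2a2* symbol but lay outside the rule for mRNA probes, read 14.17, 14.48 and 13.85 at 12 months and 14.44, 14.62 and 15.01 at 3 months. Its difference was -0.52 ± 0.28, with an adjusted p in limma of 0.235. None of these probes alone passed the test, and the direction given for *Atp2a2* depends on the probe.

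The ratio of the mRNA probes within an array does not depend on a shift of the whole array, and it was computed after the values of the probes had been seen. The log2 ratio of the first probe over the second was 0.85, 0.80 and 1.06 on the 12-month arrays and -0.02, 0.27 and -0.12 on the 3-month arrays. Every 12-month array lay above every 3-month array, with a difference in log2 ratio of 0.86, a 1.82-fold change of the ratio, and an exact permutation p of 0.1. The same ratio was formed for each of 242 genes with at least 2 tested mRNA probes, and the ages did not overlap for 19.8% of them. In a limma fit over these ratios 2.89% were called, and *Atp2a2* was among them with 0.86 ± 0.13 (SE) and an adjusted p of 0.0377, ranking at place 35 by size of the difference. That call was lost in 10 of the 13 alternative settings, among them 5 of the 6 in which 1 array was left out, all but the one without 3-month array 2. Over the 13 settings the difference lay between 0.70 and 0.98, with an adjusted p in limma of up to 0.441. The sources used here do not give where on the transcript either probe lies, so that the unequal change cannot be assigned to a splice form.

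**Figure D2:**
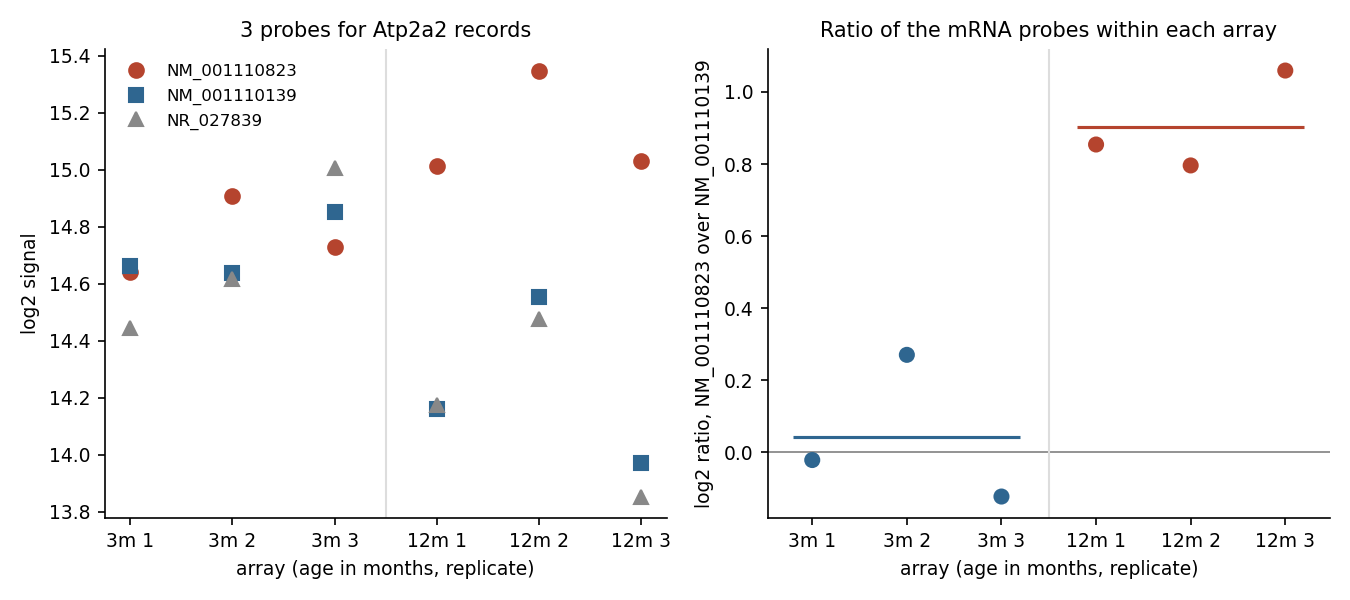
Left, log2 signal (y axis) of 3 probes for *Atp2a2* records on each array (x axis); right, the log2 ratio of the mRNA probes within each array, with the mean of each age as a line (n = 3). The ratio lies between 0.80 and 1.06 at 12 months and between -0.12 and 0.27 at 3 months.

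SERCA2 and several chaperones of the reticulum belong to genes known to respond to stress in that compartment, through promoter elements made of CCAAT, 9 bases of any kind and CCACG. The 250 bases before the start were searched on both strands, in promoter sequences of RefSeq (build GRCr8), for this element and for its shorter form ending in CCAC, so that each match of the full element is also a match of the shorter form. Of 27457 promoters, 0.0765% held the full element and 0.31% the shorter form. No promoter of the 9 genes held the full element in this window, and *Atp2a2* alone held the shorter form. Of 13 promoters found for lumenal and pump regulator genes, 4 held the full element and 5 the shorter form. Chaperones of this list are among the genes known for the element, so that these counts are no independent result. The windows of *Atp2a2* and of *Hsp90b1*, a gene of this list called higher at 12 months in limma, are shown to let these sequences be set side by side with their signals. Capitals mark the fixed letters of the match, in its sense or reverse complement, and all are written 5′ to 3′ on the strand of the gene.
Atp2a2, chr12:39733430-39733467, plus strand: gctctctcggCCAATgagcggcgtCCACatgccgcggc
Hsp90b1, chr7:23012441-23012479, minus strand: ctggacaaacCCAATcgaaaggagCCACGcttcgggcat
Hsp90b1, chr7:23012337-23012375, minus strand: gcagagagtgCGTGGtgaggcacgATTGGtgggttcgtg
The *Atp2a2* match began 79 bases before the start, and the *Hsp90b1* matches 176 and 72 bases before theirs. A match is only a run of letters, and binding was not measured.

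*Atp2a3* encodes SERCA3, a SERCA pump of lower calcium affinity that is found in beta cells. Its log2 signal was 14.11, 13.66 and 14.28 at 12 months and 14.55, 14.04 and 12.98 at 3 months. The 3-month arrays held both the highest and the lowest value of the 6. The difference was 0.17 ± 0.43 (SE), with an interval from -0.87 to 1.20 and an adjusted p in limma of 0.808. Without 3-month array 3, the lowest, it was -0.27. *Atp2a1*, the SERCA of fast skeletal muscle, had no probe whose RefSeq mRNA accession carried its symbol and could not be analysed.

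The IP3 receptors are channels of 3 genes that open when IP3 and calcium bind. *Itpr1* read 12.96, 13.11 and 12.75 at 12 months and 13.02, 13.18 and 13.36 at 3 months, a difference of -0.24 ± 0.23 (SE) with an interval from -0.80 to 0.31. *Itpr3* read 12.52, 12.05 and 12.50 against 12.51, 12.67 and 12.23, a difference of -0.12 ± 0.26 with an interval from -0.73 to 0.50. The ages overlapped for both. *Itpr2* read 7.28, 6.93 and 7.58 at 12 months and 7.35, 6.62 and 6.65 at 3 months. Its difference was 0.39 ± 0.31, with an interval from -0.35 to 1.12, and 3-month array 1 lay above 2 of the 12-month arrays. The adjusted p in limma was 0.487 for *Itpr1*, 0.774 for *Itpr3* and 0.407 for *Itpr2*.

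*Ryr2* encodes the ryanodine receptor of heart muscle, which has also been described in beta cells. Its probe was not well above background on any of the 6 arrays and was not tested. Its log2 signal was 3.57, 2.17 and 2.14 at 12 months and 3.22, 2.68 and 3.17 at 3 months. At this signal no difference could be measured in either direction. *Ryr1* and *Ryr3* had no probe whose RefSeq mRNA accession carried their symbol, so that no ryanodine receptor could be tested.

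*Stim1*, which encodes the protein that senses calcium inside the store, had the smallest SE of the 8 genes. It read 11.17, 11.03 and 11.24 at 12 months and 11.26, 11.30 and 11.19 at 3 months, and the ages overlapped. The difference was -0.10 ± 0.21 (SE), with an interval from -0.61 to 0.41, and the adjusted p in limma was 0.758. *Stim2*, which senses smaller losses of store calcium, differed by 0.18 ± 0.43, and its sign changed in 5 of 17 alternative settings.

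*Orai1* encodes the pore that STIM proteins open. It read 7.81, 6.45 and 8.26 at 12 months and 7.04, 7.18 and 6.86 at 3 months. The 12-month arrays held both the highest values and the lowest value, with an SD of 0.94 against 0.16 at 3 months. The difference was 0.48 ± 0.47 (SE), with an interval from -0.64 to 1.60 and an adjusted p in limma of 0.498. Without 12-month array 2, the lowest, the difference was 1.01, past 2-fold, with an adjusted p in limma of 0.0701, and without 12-month array 3, the highest, it was 0.10. *Orai3* differed by 0.27 ± 0.47, and *Orai2* had no probe whose RefSeq mRNA accession carried its symbol.

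**Figure D3:**
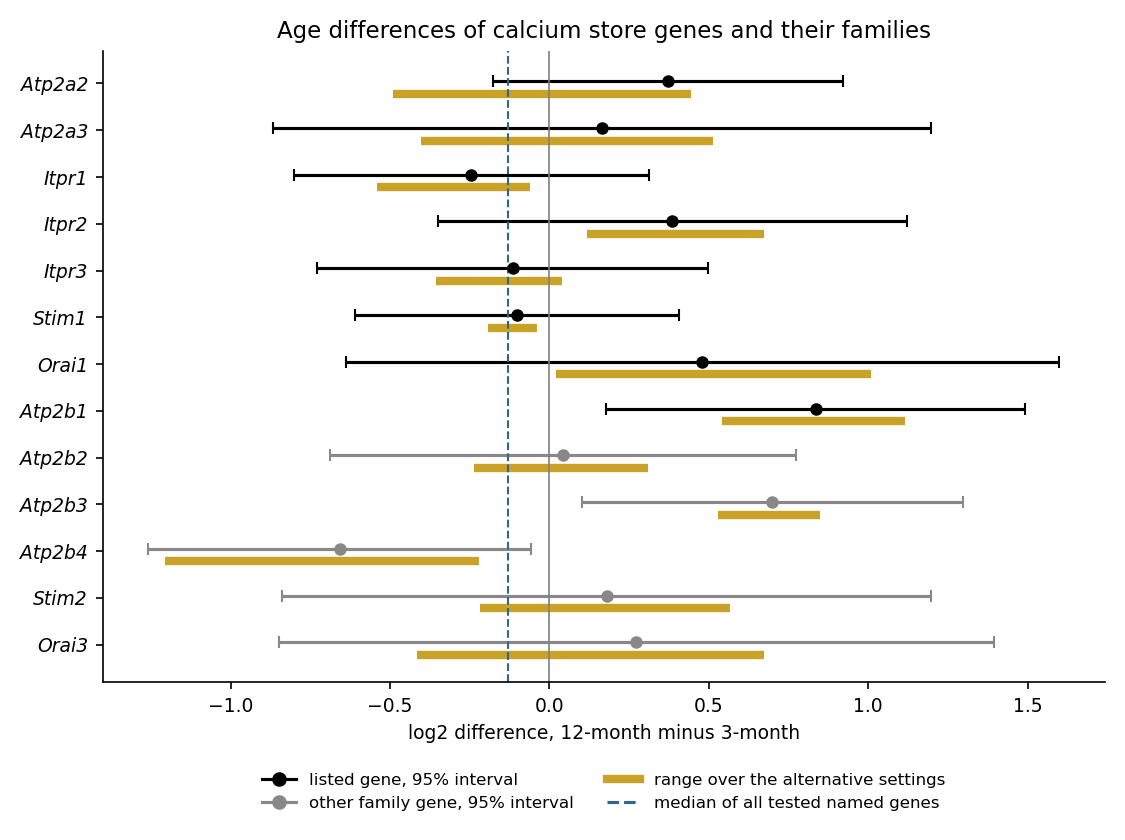
Log2 difference between 12-month and 3-month islets (x axis) for the 8 tested calcium store genes (black) and 5 other genes of their families (grey), with the 95% interval from limma (n = 3 and 3). Yellow bars span the differences over the alternative settings, and the dashed line is the median of all tested named genes, -0.13. The interval lies above 0 for *Atp2b1* and *Atp2b3* and below 0 for *Atp2b4*, before any adjustment for multiple testing.

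Around these genes, 7 lists of pathway genes were read from the same fit. Of 98 tested genes in these lists, 9 (9.18%) were called higher and 2 (2.04%) lower at 12 months at an adjusted p under 0.05, against 4.88% and 2.98% of all named genes. Leaving out an array changed this much: without 12-month array 1, without 12-month array 3 or without 3-month array 1, 2 were called higher and 0 lower, and without 3-month array 2 or without 3-month array 3, 4 were called higher.

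Proteins that bind calcium in the lumen or regulate the pump had the most called genes. Of 16 tested, 4 rose and 1 fell, and the median difference was 0.24. *Tmx1*, a membrane-bound thioredoxin-like protein of the reticulum, read 12.30, 12.22 and 12.40 at 12 months and 9.72, 9.93 and 10.03 at 3 months. It was higher by 2.42 ± 0.22 (SE), 5.34-fold, with an adjusted p in limma of 0.0043, and was called in 15 of 17 alternative settings. *Hsp90b1* (GRP94), a lumenal chaperone that binds calcium with high capacity, read 16.45, 16.76 and 16.10 against 15.12, 15.26 and 15.21, a rise of 1.24 ± 0.25. *Rcn2* (reticulocalbin 2) rose by 1.50 ± 0.28 and *Canx* (calnexin), a lectin chaperone, by 1.69 ± 0.32, the last from a dim probe. The adjusted p in limma was 0.0357 for *Hsp90b1*, 0.0278 for *Rcn2* and 0.0279 for *Canx*. With another background correction the difference of *Canx* was 0.52 and it was not called (adjusted p in limma 0.0756). Of 17 alternative settings, *Rcn2* was called in 10 and *Hsp90b1* and *Canx* in 7 each. Of the 6 settings with an array left out, *Rcn2* was called in 2, *Canx* in 1 and *Hsp90b1* in 0. For comparison *Hspa5* (BiP) differed by 0.24 and *Calr* (calreticulin) by 2.74 ± 0.99, and neither was called. The 4 promoters with the full element named above were those of *Hsp90b1*, *Canx*, *Hspa5* and *Calr*. *Hspa5* and *Calr*, like *Sln*, *Pln*, *Casq1* and *Casq2* below, were named after their values had been seen.

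The gene of this list that fell was *Sln* (sarcolipin), a small peptide of muscle that inhibits SERCA. It read 8.20, 8.80 and 8.51 at 12 months and 10.30, 9.34 and 10.44 at 3 months, a fall of 1.53 ± 0.36 (SE) on the log2 scale with an adjusted p in limma of 0.0499. It was called in 6 of 17 alternative settings. *Pln* (phospholamban), another SERCA inhibitor of muscle, had a difference of -0.83, and the calsequestrins *Casq1* and *Casq2*, which bind calcium in the muscle store, had -1.47 and -1.27. None of these 3 was called. At 12 months *Casq1* was well above background on 1 array, and with another background correction its difference was -0.73. Smooth muscle markers were lower in the same samples: of 5 tested, 4 were below 0, and *Actg2* (-2.39) and *Cnn1* (-1.84), both parts of the contractile apparatus, were called. The part of these markers in the values of *Sln*, *Pln*, *Casq1* and *Casq2* was not tested.

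Among 15 tested genes of ryanodine receptor family regulators 3 rose and none fell, with a median of -0.16. *Camk2d*, a subunit of the calcium and calmodulin dependent kinase, read 7.24, 7.42 and 7.92 at 12 months and 3.49, 3.97 and 4.22 at 3 months. The difference was 3.63 ± 0.31 (SE), with an adjusted p in limma of 0.0034. At 3 months 2 of its 3 readings were well above background, and it fell to 1.69 with another background correction while remaining called. *Calm2* encodes calmodulin, the calcium sensor that acts on release channels and on PMCA pumps. It read 16.04, 16.25 and 15.84 at 12 months and 15.01, 14.83 and 14.86 at 3 months, a rise of 1.14 ± 0.23 with an adjusted p in limma of 0.0342. It was called in 8 of 17 alternative settings and in none with an array left out, while *Calm3* had a difference of -0.27 ± 0.23 and was not called.

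Among 18 tested genes of IP3 production, removal and related proteins, 1 fell and none rose, and the median was -0.45 with 15 of the 18 below 0. *Plcb2* (-1.13) and *Gna11* (0.10) were well above background on 3 arrays at 3 months and 0 at 12 months. They thus passed the filter through the 3-month arrays alone. Both were named after their values had been seen. Over all named genes, 4870 of 11189 were above 0. *Plcg2*, a phospholipase C that produces IP3, read 9.41, 9.35 and 9.34 at 12 months and 10.93, 10.29 and 10.98 at 3 months, a fall of 1.37 ± 0.27 (SE) with an adjusted p in limma of 0.0313. It was called in 10 of 17 alternative settings. Of 7 tested immune markers 5 were below 0, with differences from -0.88 to 1.72, a median of -0.01 and none called, and their part in this value was not tested.

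In the list of other pumps and exchangers, 1 of 10 rose and none fell, with a median of 0.12. *Slc24a2*, a sodium, calcium and potassium exchanger of the plasma membrane, read 8.35, 6.81 and 8.94 at 12 months and 3.04, 4.05 and 5.73 at 3 months. The difference was 3.76 ± 0.80 (SE), with an adjusted p in limma of 0.0387, and 2 of the 3 readings at 3 months were well above background. With another background correction it was 1.80, and it was called in 9 of 16 alternative settings. In the list of leak and counter-ion channels, 1 of 15 rose and none fell, with a median of 0.13. It was *Tmem38b* (TRIC-B), a potassium channel of the reticulum that balances charge during calcium release, with 8.64, 9.23 and 8.66 against 5.42, 7.13 and 6.56. It rose by 2.47 ± 0.46, with an adjusted p in limma of 0.0279, and was called in 10 of 17 alternative settings.

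None of 13 store sensing and entry partners was called, with a median of 0.18, and none of 11 genes of mitochondrial calcium uptake, with a median of 0.04. The smallest p in the list of partners was that of *Esyt1*, a tether between reticulum and plasma membrane, with -1.46 ± 0.47 (SE) and an adjusted p in limma of 0.0919.

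**Figure D4:**
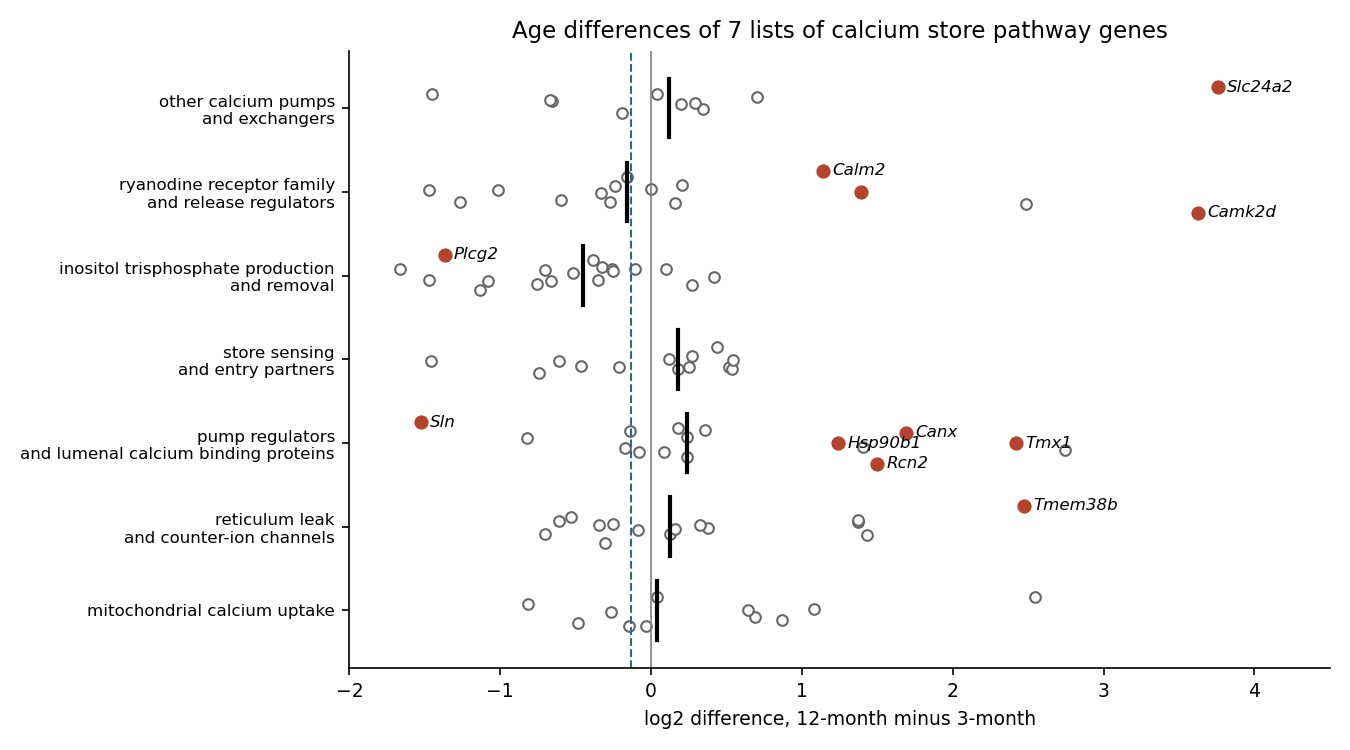
Log2 difference between 12-month and 3-month islets (x axis) for each tested gene of 7 pathway lists (y axis), as points scattered vertically for legibility. Red points passed an adjusted p of 0.05 in limma, and those described in the text are named, black bars are list medians, from -0.45 to 0.24, and the dashed line is the median of all tested named genes, -0.13.

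When the tested named genes were sorted by mean signal into 5 bins of like size, 5 of the 8 calcium store genes (*Atp2a2*, *Atp2a3*, *Atp2b1*, *Itpr1* and *Itpr3*) were in the brightest bin. In that bin 2.32% of genes were called higher and 0.76% lower at 12 months, the lowest shares of the 5 bins.

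Markers of other cell types varied as follows, as the number of genes called of those tested and the median difference. Among beta cell markers 2 of 9 rose, with a median of 0.95, and among other endocrine markers 1 of 10 rose, with 0.23. Among stellate and mesenchymal markers 1 of 7 rose, with 1.39. Among smooth muscle markers 2 of 5 fell, with -0.85, and among nerve and Schwann cell markers 2 of 11 fell, with -1.32. No gene was called among acinar (11 tested, 0.06), duct (4 tested, -0.09), endothelial (6 tested, -0.67) or red blood cell and platelet markers (5 tested, -0.36). The endothelial median counts *Cdh5*, which passed the filter through the 3-month arrays alone. Of 75 tested markers, with immune markers counted, 4 (5.33%) were called higher and 4 (5.33%) lower at 12 months. Over all named genes 4.88% were called higher and 2.98% lower. The part of these markers in the values of the calcium store genes was not tested.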

How the data were processed

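The authors deposited scanner files with, per the file headers, spot intensity from Agilent Feature Extraction 11.0.1.1, and a table of log2 values that, per the supplement, had been quantile normalized. The other deposited columns used here hold quality marks. For each probe, background-subtracted values of spots without outlier marks were averaged as log2 and quantile normalized. No spot was saturated. Probes well above background on at least 3 of 6 arrays were kept, and 17941 were tested with limma 3.58.1 in R 4.3.3 (lmFit and eBayes, two-sided, no block), with Benjamini-Hochberg adjustment over all of them. The fit was tested on simulated data. Symbols came from a RefSeq table of assembly GRCr8. The array design used another build, so only promoters have coordinates. A gene took its probe with the highest mean.

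The genes, lists and rules were chosen with earlier results of these data known. The naming rule took all members of the gene families, up to 4 called genes of each list, or the one with the smallest p, 2 bright markers of each cell type (those not printed bear on no result), and the 3 genes most like *Atp2b1*. Some items that this rule takes are not reported here, although the counts include them. The 12-month array 3 has no number in its label. The deviations of same-numbered arrays had correlations of -0.01 and -0.31, and those of other arrays of the 2 ages reached 0.36. With so few arrays these values cannot tell whether the numbers mark pairs, and the main fit used no pairing. The series' design names 3 rats of each age. The number of arrays limits the precision. Alternatives covered scaling, background, filter, variances, array weights, a replicate block, the methods' t-test and each array left out.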

Additional observations from a re-analysis of the deposited data

How the results depend on the processing

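No calcium store gene was called in any setting but array weights, where 1 was (*Atp2b1*, 0.86). The study's threshold was passed by 1 gene with the replicate block, and by 0 to 1 with an array left out. The sign of *Atp2a2* turned with the 75th percentile shift (-0.021), the mean of its probes (-0.059) and its other probe (-0.49). That of *Atp2a3* turned with the shift (-0.17), the block (-0.40) and without 3-month array 3 (-0.27, the lowest of -0.27 to 0.51 with an array left out), and that of *Itpr3* with array weights (0.0017) and without 12-month array 2 (0.040, the highest of -0.23 to 0.040). The cause was not tested. The ratio of the *Atp2a2* probes lost its call with the shift (0.81), cyclic loess (0.85), the 4 arrays whose names share an ending (0.75), the block (0.70), the methods' t-test (0.86) and in 5 of the 6 settings with an array left out (0.78 to 0.98 over the 6; kept without 3-month array 2). These ratio settings were chosen after seeing the data.

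Pathway genes called higher (9) numbered 5 with the shift, 15 with array weights, 3 with the t-test, and 2 to 9 with an array left out. Those called lower (2) numbered 5 with normexp, 4 with an intensity trend, 10 with array weights, 1 with the t-test and 0 to 2 with an array left out. Cell type markers called higher (4) numbered 7 with the trend, 12 with weights, 1 with the t-test and 2 to 6 with an array left out, and those called lower (4) numbered 8 with weights, 0 with the t-test and 0 to 3. With the replicate block over the numbered pairs, and with the 4 arrays, 0 were called in each list. The block and the 4 arrays leave fewer arrays and called 0 of all named genes, against 879 with all 6, 121 without 12-month array 1, 1141 without 12-month array 2, 151 without 12-month array 3, 173 without 3-month array 1, 608 without 3-month array 2, 256 without 3-month array 3, 1317 with cyclic loess and 3324 with array weights. The t-test called 266.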

Other observations

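The genes whose signal followed that of *Atp2b1* most closely over the 6 arrays, out of 11188 other named genes, were *Nip7*, *Srsf4* and *Il20ra*, with Pearson r of 0.997, 0.997 and 0.996. The points share arrays, scaling and the age groups, and with 6 arrays and so many genes very high values are found for many of them, so these are descriptions. Their own log2 differences between 12 and 3 months were 0.86, 0.95 and 1.61.

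Correlations among the 8 tested calcium store genes took both signs. Over their 28 pairs, the correlation of the deviations from the age means lay between -0.99 and 0.95, with a median of -0.36, and 13 of the 28 were above 0. Each rests on 6 arrays that share their scaling, with the age means taken off, and the same was not computed for pairs of other genes. With so few arrays these values cannot tell whether the genes move together.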
